A study of Mus musculus with 32 samples.

Results

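The genes described here are the tumour necrosis factor (TNF) superfamily ligands and receptors, measured in microglia and macrophages sorted from mouse brain. Their members were the rows of the deposited expression table whose symbol begins with Tnfsf or Tnfrsf and a number, together with Tnf, less 1 matching row that the selection left out. This gave 22 of 17586 genes, of which 10 were ligands (Tnf, Tnfsf8, Tnfsf9, Tnfsf10, Tnfsf12, Tnfsf13, Tnfsf13b, Tnfsf14, Tnfsf15 and Tnfsf18) and 12 were receptors (Tnfrsf1a, Tnfrsf1b, Tnfrsf9, Tnfrsf10b, Tnfrsf11b, Tnfrsf13c, Tnfrsf17, Tnfrsf19, Tnfrsf21, Tnfrsf22, Tnfrsf23 and Tnfrsf26). Lta and Ltb, which the selection also names, had no row under those symbols in the table.

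TNF superfamily ligands are made as trimers on the cell surface, and many are cut off to act as soluble cytokines. They bind receptors of the paired family, which either recruit TRAF adaptors that switch on NF-kB and MAP kinase signalling, or, through a death domain, recruit FADD and caspases that kill the cell. Several receptors carry no signalling domain and act as decoys. In brain, TNF from microglia is a classic early product of inflammatory activation, and in tumours several family members act as co-stimulators of T cells or as survival factors for B cells.

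The 32 libraries formed 4 populations of 8. Normal microglia came from mice with neither tumour nor graft. The other populations, called tumour microglia, differentiated macrophages and undifferentiated macrophages here, were sorted from the tumour-bearing brain of chimeric mice of normal immunity. Cells of the syngeneic glioblastoma line GL-261 had been implanted in these mice, and the chimeras were labelled PEP-3 into WT or WT into PEP-3. In every population 4 libraries had a C57BL/6J recipient (WT) and 4 a Pep3/CD45.1 recipient (Pep3); for normal microglia this is only the strain of the mouse. All cells were brain cells with no drug treatment, while neither the ages of the mice nor the gates of the sort are given in the sources used here. Normal microglia were prepared in experiments 1 and 2 and the tumour populations in experiments 3 and 4, so tumour, graft and experiment cannot be told apart in any comparison with normal microglia. In experiment 3 the macrophages had WT recipients and the tumour microglia Pep3 recipients, and in experiment 4 the reverse held, so comparisons among tumour populations averaged over recipients were balanced over experiments. No label states that each library is a different animal, so a p-value here reflects variation among libraries, which may be technical.

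The deposited values were scores without a stated scale, in which each gene averaged 0 over all libraries and within each recipient strain. A score therefore says how a library compares with the average library for that gene. It gives no expression level, no fold change and no sequencing depth, and levels of different genes cannot be ranked. Differences are given in units of this scale with their standard error (SE), and a gene is called higher or lower where the limma test across all genes gave an adjusted p below 0.05. Besides the mean and the recipient difference, 9 further directions across samples had been removed from the table, and 9 libraries kept under 50% of their own variation: 10, 18, 26 and 1 among normal microglia, 27 among tumour microglia, 31 and 28 among differentiated macrophages and 8 and 29 among undifferentiated ones. Scores of such libraries are partly fixed by the others, so the 8 libraries of a population are not 8 independent values. The median score of a library over all genes ran from -0.627 to -0.0229 in tumour microglia and from 0.00208 to 0.581 in differentiated macrophages, so values with each library's median subtracted are given where they change a call. Microglia and macrophages matched their names on markers: 10 of 10 microglia markers were called lower and 9 of 9 markers of blood-derived macrophages higher in each macrophage population against tumour microglia. Between differentiated and undifferentiated macrophages 0 of 10 and 1 of 9 were called, so these markers do not bear out those names. In bulk samples, fewer cells of a type and less RNA per cell cannot be told apart.

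The TNF family varied among these libraries about as much as other genes. The standard deviation (SD) of a member over the 32 libraries ran from 0.433 to 1.81 with a median of 0.978, against a median of 0.890 for all genes. The TNF receptors Tnfrsf1b and Tnfrsf1a and the death domain receptor Tnfrsf21 varied least, at the 2.25, 4.37 and 4.27 percentile of all genes. Tnfsf13 varied most, at the 98.8 percentile, followed by the decoy receptor Tnfrsf23 at 98.2 and the B cell receptor Tnfrsf13c at 96.3. Tnf itself was at 95.3.

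Ligands and receptors were ordered differently across the populations. Of the 10 ligands, 7 had their lowest mean score in normal microglia (Tnf, Tnfsf8, Tnfsf9, Tnfsf10, Tnfsf13, Tnfsf14 and Tnfsf18) and 2 in tumour microglia (Tnfsf12 and Tnfsf15). Of the 12 receptors, 1 was lowest in normal microglia (Tnfrsf9) and 7 in tumour microglia (Tnfrsf1b, Tnfrsf10b, Tnfrsf11b, Tnfrsf13c, Tnfrsf19, Tnfrsf22 and Tnfrsf26). Over all genes, 30.8% were lowest in normal microglia and 45.6% in tumour microglia. Undifferentiated macrophages had the highest mean for 5 ligands and 4 receptors, where 28.3% of all genes had theirs. No receptor was highest in tumour microglia, against 14.5% of all genes, while 2 ligands were, Tnf and Tnfsf13b. These orders are of means and include neighbours that do not differ beyond their spread.

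**Figure D1:**
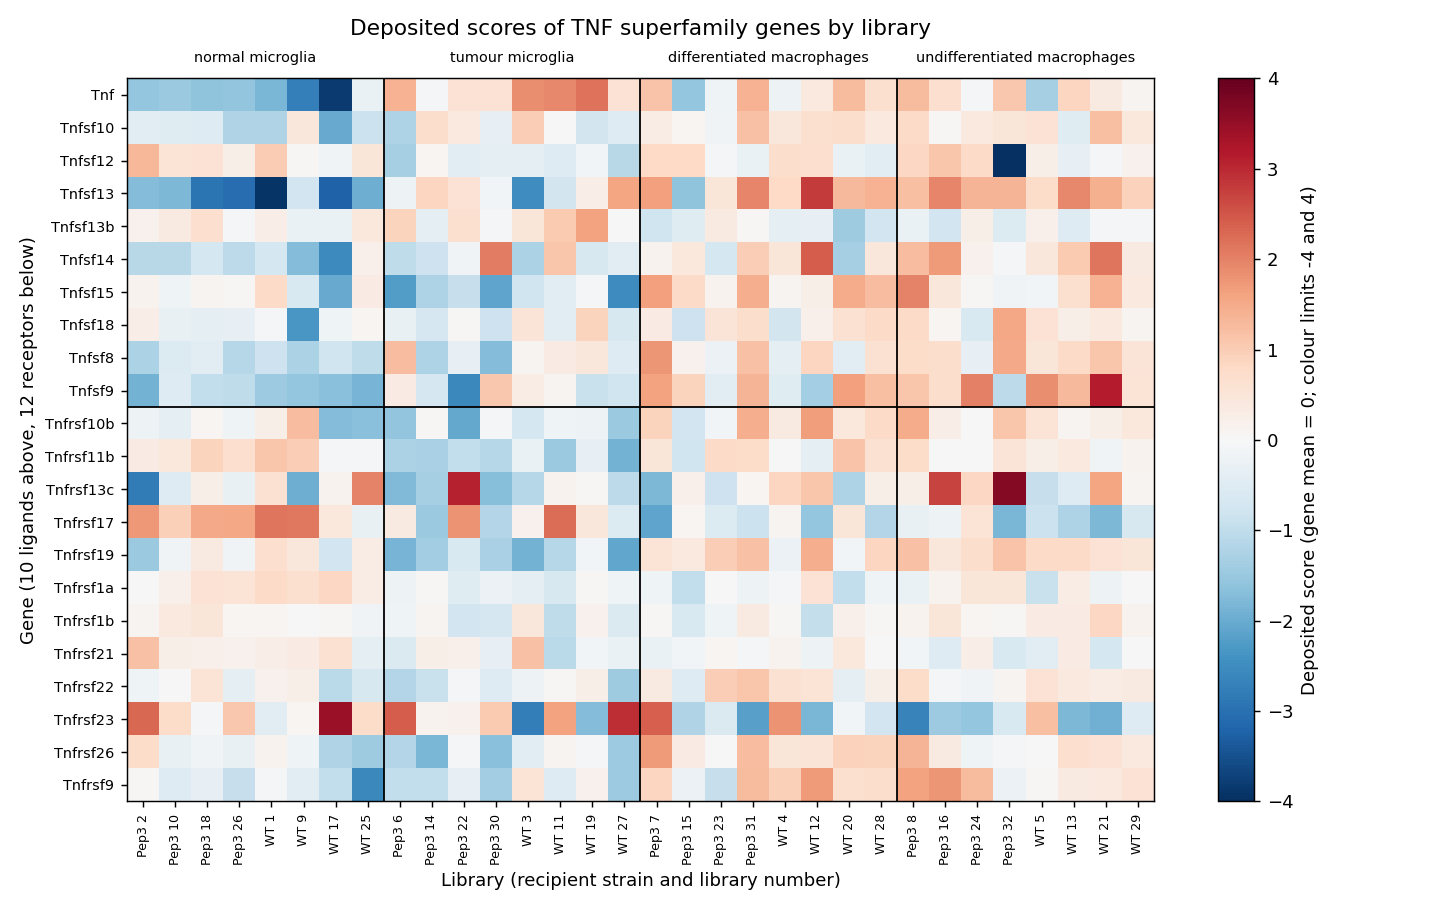
Deposited score of each of the 22 genes (rows, ligands above and receptors below the line) in each of the 32 libraries (columns, by population, recipient strain and library number), with red above and blue below the gene's average and colours saturating at -4 and 4. Tnf and Tnfsf13 are blue across normal microglia, and Tnfrsf19, Tnfrsf11b and Tnfsf15 are blue across tumour microglia.

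Tumour microglia against normal microglia asks how resident microglia of the tumour-bearing brain differ from those of a brain without tumour. Of the 22 members, 2 were called higher, where 4.66% of all genes were, and 3 lower, where 12% were. The 2 were ligands, Tnf and Tnfsf13. The 3 called lower were the ligand Tnfsf15 and the receptors Tnfrsf11b and Tnfrsf19. The median difference was 0.63 over the ligands and -0.56 over the receptors, beside -0.25 over all genes. All 5 calls held with library medians subtracted, when 7.72% of all genes were higher and 7.6% lower. Without the 9 libraries that kept under 50%, Tnf alone was called, at 3.22 (adjusted p = 0.015), when the removed directions had no terms in the fit, and 0 members when they had.

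Tnf, the founding inflammatory cytokine of the family, ran in normal microglia from -3.82 to -0.26 with a median of -1.59. In tumour microglia it ran from -0.05 to 2.18 with a median of 0.99. All 8 tumour libraries lay above all 8 normal libraries, a separation that 1.01% of all genes showed upward. The fitted difference was 2.88 (SE 0.503, adjusted p = 0.00086), at the 99.8 percentile of all genes. It was 4.51 (SE 0.872, adjusted p = 0.021) in WT recipients and 1.26 (SE 1.01, adjusted p = 0.42) in Pep3 recipients, where the deposited means differed by 3.79 and 2.18, and the difference between recipients was not called (adjusted p = 0.25). The call was lost in 1 of 32 fits that each left out a library, without normal microglia library 1, and the differences in those fits ran from 2.45 to 3.20. Neither TNF receptor was called: Tnfrsf1a, which carries a death domain, differed by -0.74 (SE 0.308, adjusted p = 0.098) and Tnfrsf1b, which has none, by -0.51 (SE 0.305, adjusted p = 0.26).

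Tnfsf13 (APRIL), a survival factor for plasma cells, ran from -3.92 to -0.78 with a median of -2.43 in normal microglia and from -2.48 to 1.58 with a median of 0.08 in tumour microglia. The populations overlapped. Its fitted difference was 2.56 (SE 0.585, adjusted p = 0.0053), and it ran from 0.95 to 3.29 when single libraries were left out. The call was lost without library 10, 18, 26 or 1 of normal microglia or library 27 of tumour microglia, all of which kept under 50% of their own variation. Tnfrsf17 (BCMA), a receptor for Tnfsf13 on plasma cells, differed by -1.24 (SE 0.554, adjusted p = 0.12) and was not called. Tnfsf13 lies next to Tnfsf12 in the RefSeq gene order, and how reads near both were shared by the counting is not known.

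The promoters of these ligands, the called ones that were higher in tumour microglia, are shown as the 250 bases before the RefSeq start (build GRCm38.p6, both on the minus strand, written 5′ to 3′). Tnf lies at chr17:35202008-35202257 and Tnfsf13 at chr11:69685555-69685804. Capitals mark matches to motifs searched on both strands.
Tnf: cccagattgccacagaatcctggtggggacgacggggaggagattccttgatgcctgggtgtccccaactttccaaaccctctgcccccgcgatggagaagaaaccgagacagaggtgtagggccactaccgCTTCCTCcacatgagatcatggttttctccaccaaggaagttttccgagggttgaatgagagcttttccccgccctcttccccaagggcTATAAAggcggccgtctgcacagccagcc
Tnfsf13: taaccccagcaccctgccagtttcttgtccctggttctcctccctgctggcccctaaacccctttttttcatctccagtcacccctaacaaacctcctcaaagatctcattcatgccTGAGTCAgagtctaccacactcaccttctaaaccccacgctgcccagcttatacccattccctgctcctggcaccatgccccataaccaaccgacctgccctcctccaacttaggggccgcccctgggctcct
In Tnf the capitals are a PU.1 match 118 bases before the start and a TATA box 29 bases before it, and in Tnfsf13 an AP-1 match 133 bases before it. The motifs searched were GAGGAAG for PU.1, TGANTCA for AP-1, TATAAA for the TATA box, GGGA then any 4 bases then CC for NF-kB, and GAAA then any 2 bases then GAAA for the interferon response element. They occur in 10.6%, 6.75%, 12.4%, 17.6% and 2.98% of all 32851 promoter windows of this length. RefSeq had windows for 16 of the 22 members, 19 in all, and 3, 4, 4, 2 and 3 of them held the motifs in that order. The NF-kB letters were in the windows of Tnfrsf9 and Tnfsf14. A match describes letters in this window and is not a measured site. These promoters were chosen after their genes' values were seen.

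Tnfrsf11b (osteoprotegerin), a secreted decoy receptor that binds TRAIL and the bone-resorption ligand Tnfsf11, ran from -0.09 to 1.12 with a median of 0.56 in normal microglia. In tumour microglia it ran from -1.88 to -0.28 with a median of -1.21. Every tumour library lay below every normal library, as for 0.762% of all genes. Its difference was -1.80 (SE 0.338, adjusted p = 0.0014), and the call was lost without library 10 or library 1 of normal microglia, with differences from -2.09 to -1.52 over the fits.

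Tnfrsf19 (TROY), a receptor best known from the developing nervous system, had a median of 0.08 in normal microglia (lowest -1.49, highest 0.66). Its median in tumour microglia was -1.34 (lowest -2.09, highest -0.12). The groups overlapped, and the difference was -1.30 (SE 0.348, adjusted p = 0.014). Its call was lost without libraries 10, 18 or 1 of normal microglia or 27 of tumour microglia, with differences from -1.51 to -0.99. Tnfsf15 (TL1A), a co-stimulator of T cells and a brake on vessel growth, had a median of 0.09 in normal microglia (lowest -2.01, highest 0.78) and of -1.08 in tumour microglia (lowest -2.50, highest -0.07). It also overlapped and differed by -1.43 (SE 0.401, adjusted p = 0.018), called in the fits that kept libraries 10, 18, 26, 1 and 27, with differences from -1.78 to -1.12. For Tnfsf15 the difference was 0.65 (SE 0.695, adjusted p = 0.75) in WT recipients and -3.50 (SE 0.804, adjusted p = 0.0054) in Pep3 recipients, and the difference between recipients was not called (adjusted p = 0.059). The deposited means of Tnfsf15 differed by -0.57 in WT and -1.66 in Pep3 recipients, so the fitted value in WT has the opposite sign to the means.

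**Figure D2:**
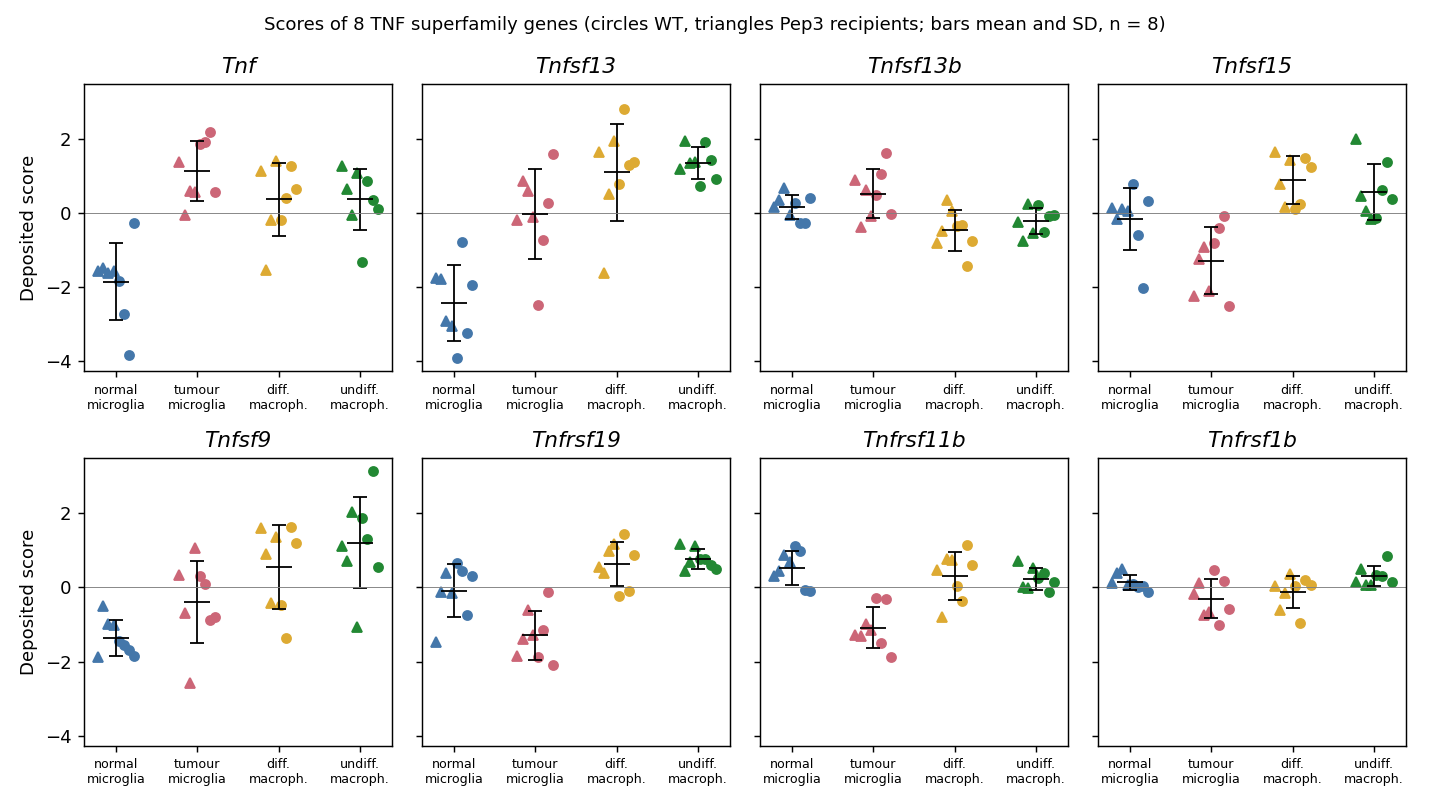
Deposited scores of 8 genes in the 4 populations, each point a library (circles WT, triangles Pep3 recipients), with bars for the mean and SD of 8 libraries. Tnf and Tnfsf13 are lowest in normal microglia, Tnfsf15, Tnfrsf19 and Tnfrsf11b are lowest in tumour microglia, and Tnfrsf1b varies little.

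Macrophages against tumour microglia asks how the macrophages of a tumour-bearing brain differ from its resident microglia. In differentiated macrophages 7 of 22 members were called higher, where 37% of all genes were, and 1 lower, where 6.35% were. In undifferentiated macrophages 9 were called higher and 1 lower, where 36.7% and 5.19% of all genes were. The share of members called higher was near that of all genes in both. The median member differed by 0.63 in differentiated and 1.07 in undifferentiated macrophages, beside medians of 0.65 and 0.71 over all genes. With library medians subtracted, the split was 4 higher and 2 lower in differentiated macrophages (19.8% and 19.2% of all genes) and 2 higher and 4 lower in undifferentiated macrophages (16.7% and 16.3%). Both comparisons share the tumour microglia libraries. Without the 9 libraries that kept under 50% and without terms for the removed directions, Tnfsf15, Tnfrsf19, Tnfrsf11b and Tnfrsf26 were still called higher and Tnfsf13b lower in differentiated macrophages, and Tnfsf15, Tnfrsf19, Tnfrsf11b and Tnfsf9 higher in undifferentiated macrophages, while 0 were called with those terms. All 8 and all 10 called members differed in the same direction in both experiments, with each experiment's values comparing recipients of different strains. The calls came from these same libraries, which favours such agreement, so it is no separate support. The share over all called genes was not computed.

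Tnfsf15, Tnfrsf19 and Tnfrsf11b were called higher in both macrophage populations. These comparisons share the tumour microglia libraries with that against normal microglia, so low scores in tumour microglia enter each of them. Against normal microglia Tnfrsf11b differed by -0.21 (adjusted p = 0.65) in differentiated and -0.31 (adjusted p = 0.53) in undifferentiated macrophages, neither called. Tnfsf15 ran from 0.10 to 1.65 with a median of 1.00 in differentiated macrophages, above all 8 tumour microglia libraries, and from -0.15 to 1.99 with a median of 0.41 in undifferentiated macrophages. Such a separation held for 7.09% of all genes in differentiated macrophages. Its differences were 2.53 (SE 0.416, adjusted p = 8.4e-05) and 2.18 (SE 0.434, adjusted p = 0.00053). Tnfrsf19 had medians of 0.71 in differentiated macrophages (lowest -0.24, highest 1.45) and 0.72 in undifferentiated macrophages (lowest 0.44, highest 1.17), the latter above all tumour microglia libraries. Its differences were 1.95 (SE 0.361, adjusted p = 0.00024) and 2.41 (SE 0.377, adjusted p = 7.1e-05). Tnfrsf11b had medians of 0.54 (lowest -0.80, highest 1.13) and 0.19 (lowest -0.13, highest 0.72), again with undifferentiated macrophages above all tumour microglia, as for 6.77% of all genes. It differed by 1.59 (SE 0.351, adjusted p = 0.001) and 1.49 (SE 0.366, adjusted p = 0.0026).

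Tnfsf15 and Tnfrsf19 were called in both comparisons in all 32 fits that left out a library, and also with library medians subtracted. Tnfrsf11b was called in all 32 for differentiated macrophages and in 31 for undifferentiated macrophages, the exception being without differentiated macrophage library 31, when it differed by 1.05. With medians subtracted its difference in undifferentiated macrophages was 0.77 (adjusted p = 0.077), no longer called. In the 2 experiments the difference of mean scores of Tnfsf15 was 2.39 and 1.95 in differentiated macrophages and 2.19 and 1.54 in undifferentiated macrophages. For Tnfrsf19 these values were 1.78 and 2.08, then 1.94 and 2.17.

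Markers of several cell types outside the myeloid lineage were also lower in tumour microglia than in macrophages, with fewer calls once medians were subtracted. Over all genes 37% and 36.7% were called higher in differentiated and undifferentiated macrophages, and 19.8% and 16.7% with medians subtracted. Of 4 T cell markers measured (of 11 listed), 4 and 3 were called higher in the 2 macrophage populations, and 3 and 2 with medians subtracted. Their summed score ran from -8.63 to -0.72 in tumour microglia, from 0.57 to 5.28 in differentiated macrophages and from 0.57 to 5.71 in undifferentiated macrophages. Endothelial markers were called higher for 5 and 4 of 6, with sums from -8.07 to -1.56, from -0.63 to 6.87 and from 0.69 to 7.02, and for 2 and 2 with medians subtracted. NK cell markers were called higher for 3 and 3 of 3 measured (of 7 listed), and for 2 and 2 with medians subtracted. Neuron markers were called higher for 3 and 3 of 4, and for 0 and 0 with medians subtracted. Astrocyte markers were higher for 4 and 4 of 6 and lower for 1 and 1, and 2 and 2 were higher with medians subtracted. Oligodendrocyte markers were higher for 1 and 1 of 5. Of 3 dendritic cell markers measured (of 6 listed), 2 and 1 were called higher, and 1 and 0 with medians subtracted. In tumour against normal microglia 1 of them was called higher. In tumour against normal microglia 2 of the T cell markers, 1 endothelial and 1 neuron marker were lower, 1 astrocyte marker was higher and 1 lower, and 1 oligodendrocyte marker was higher. No NK cell marker was called there, where 12% of all genes were lower and 4.66% higher. The scores give no level, so it cannot be said which of these markers are near 0, and their part in the results for Tnfsf15, Tnfrsf19 and Tnfrsf11b was not tested.

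The promoters of Tnfsf15 (chr4:63745060-63745309) and Tnfrsf19 (chr14:61046856-61047105) are shown because both were called in the 3 comparisons above and, in both comparisons of macrophages with tumour microglia, in all 32 fits that left out a library. Both are on the minus strand of GRCm38.p6, as 250 bases before the RefSeq start, written 5′ to 3′.
Tnfsf15: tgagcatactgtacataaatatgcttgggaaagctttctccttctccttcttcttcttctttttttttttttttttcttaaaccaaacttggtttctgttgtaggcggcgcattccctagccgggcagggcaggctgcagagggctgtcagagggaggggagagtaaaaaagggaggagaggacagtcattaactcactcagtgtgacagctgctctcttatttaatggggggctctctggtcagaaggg
Tnfrsf19: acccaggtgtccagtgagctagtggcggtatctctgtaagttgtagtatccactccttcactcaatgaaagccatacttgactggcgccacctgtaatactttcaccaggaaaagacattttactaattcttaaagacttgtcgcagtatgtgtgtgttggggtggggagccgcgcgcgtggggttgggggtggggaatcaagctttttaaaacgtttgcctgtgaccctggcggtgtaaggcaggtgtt
Neither window held any of the motifs searched, so no letters are in capitals. This says only that those letters are not in these windows.

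The TRAIL receptor group held Tnfsf10 (TRAIL), its death receptor Tnfrsf10b, the decoys Tnfrsf22 and Tnfrsf23, and Tnfrsf26, a receptor of the same gene cluster. Tnfrsf26, Tnfrsf22 and Tnfrsf23 are consecutive genes in the RefSeq order. Their sequences were not compared here. Reads may have been split among them, so their single values are uncertain. Tnfrsf10b had a median of -0.45 in tumour microglia (lowest -2.05, highest 0.04), 0.59 in differentiated macrophages (lowest -0.76, highest 1.67) and 0.35 in undifferentiated macrophages (lowest -0.01, highest 1.48). It was called higher in both, by 1.53 (SE 0.488, adjusted p = 0.015) and 1.49 (SE 0.51, adjusted p = 0.023). Each call was lost in 4 of 32 fits, without libraries 27, 31, 8 or 29, with values down to 1.02 and 0.72, and both were lost with medians subtracted. Tnfsf10 itself was not called against tumour microglia: it differed by 0.56 (SE 0.432, adjusted p = 0.31) and 0.59 (SE 0.451, adjusted p = 0.31).

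Tnfrsf26 had a median of -0.80 in tumour microglia (lowest -1.83, highest 0.11), 0.71 in differentiated macrophages (lowest -0.01, highest 1.71) and 0.36 in undifferentiated macrophages (lowest -0.17, highest 1.36). The populations overlapped at their edges. It was called higher in all 32 fits of both comparisons, by 1.94 (SE 0.32, adjusted p = 8.7e-05) and 1.41 (SE 0.334, adjusted p = 0.002). With medians subtracted the call held in differentiated and was lost in undifferentiated macrophages, where the difference was 0.69 (adjusted p = 0.1). For differentiated macrophages the fitted difference was 3.27 (SE 0.57, adjusted p = 0.00025) in Pep3 recipients and 0.61 (SE 0.504, adjusted p = 0.57) in WT recipients. The deposited means themselves differed by 2.00 in Pep3 and 1.16 in WT recipients. That contrast between recipients was not called (adjusted p = 0.13). Within 1 recipient strain the macrophages and the tumour microglia came from different experiments. Population and experiment therefore cannot be told apart in these values.

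Tnfrsf22 was called higher in differentiated macrophages, by 1.02 (SE 0.358, adjusted p = 0.025), and had a difference of 0.92 (SE 0.374, adjusted p = 0.053) in undifferentiated macrophages. The call was lost in 6 of 32 fits, without libraries 27, 23, 31, 4, 8 or 29, with values from 0.58 to 1.66, and with medians subtracted. Tnfrsf23 had a median of 0.62 in tumour microglia (lowest -2.78, highest 2.96) and -1.50 in undifferentiated macrophages (lowest -2.66, highest 1.21), a wide overlap. It was the only member called lower there, by -2.38 (SE 0.909, adjusted p = 0.04), while the deposited means differed by -1.64. This call was lost in 16 of 32 fits, without libraries 2, 18, 1, 6, 22, 11, 27, 31, 4, 28, 8, 16, 24, 13, 21 or 29, with values from -2.97 to -1.06.

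Tnfrsf9 (CD137) and its ligand Tnfsf9, a co-stimulatory pair of T cells, were both higher in undifferentiated macrophages. Tnfrsf9 had a median of -0.74 in tumour microglia (lowest -1.46, highest 0.54), 0.78 in differentiated macrophages (lowest -0.93, highest 1.69) and 0.48 in undifferentiated macrophages (lowest -0.24, highest 1.77). It was called higher by 1.44 (SE 0.395, adjusted p = 0.0053) and 1.66 (SE 0.412, adjusted p = 0.0029). The second call held in all 32 fits, and the first was lost without library 27 or library 29, with values from 1.01 to 2.39. Both were lost with medians subtracted. Tnfsf9 had a median of -0.29 in tumour microglia (lowest -2.59, highest 1.07) and 1.20 in undifferentiated macrophages (lowest -1.06, highest 3.14). Its difference of 1.99 (SE 0.612, adjusted p = 0.012) was called in 29 of 32 fits, lost without libraries 27, 28 or 21, with values from 1.69 to 2.37, and lost with medians subtracted. In differentiated macrophages Tnfsf9 differed by 0.87 (SE 0.586, adjusted p = 0.24), not called.

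Tnfsf8 (CD30 ligand), a lymphocyte co-stimulator next to Tnfsf15 in the gene order, was called higher in undifferentiated macrophages by 1.27 (SE 0.434, adjusted p = 0.022). Its median there was 0.72 (lowest -0.34, highest 1.52) against -0.12 in tumour microglia (lowest -1.73, highest 1.24), with overlap. The call was lost without libraries 30, 27, 31, 32 or 29, with values from 1.05 to 1.60, and with medians subtracted.

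Of the B cell ligands and receptors, Tnfsf13b was called in differentiated and Tnfrsf13c in undifferentiated macrophages. Tnfsf13b (BAFF), the survival factor for B cells, had a median of 0.56 in tumour microglia (lowest -0.39, highest 1.62), -0.42 in differentiated macrophages (lowest -1.43, highest 0.35) and -0.17 in undifferentiated macrophages (lowest -0.76, highest 0.24). It was the 1 member called lower in differentiated macrophages, by -0.95 (SE 0.359, adjusted p = 0.036), and with medians subtracted it was called lower in both populations, by -1.62 (adjusted p = 0.0014) and -1.39 (adjusted p = 0.0063). Without medians subtracted the call was lost in 9 of 32 fits, without libraries 6, 22, 11, 19, 7, 15, 20, 28 or 8, with values from -1.33 to -0.45. Its receptor Tnfrsf13c was called higher in undifferentiated macrophages, by 2.04 (SE 0.752, adjusted p = 0.033), with a median of 0.55 (lowest -0.92, highest 3.67) against -1.10 (lowest -1.77, highest 3.07). The groups overlapped over most of their range, the call was lost in 12 of 32 fits (libraries 18, 1, 6, 14, 30, 3, 27, 31, 16, 32, 21 and 29, with values from 1.68 to 2.46), and it was lost with medians subtracted. Tnfrsf17 was called in neither comparison, and with medians subtracted it was called lower in undifferentiated macrophages by -1.78 (adjusted p = 0.03). Of 6 B cell and plasma cell markers measured (of 10 listed), 4 were called higher in differentiated macrophages, where 37% of all genes were. In undifferentiated macrophages 5 were higher and 1 lower, where 36.7% and 5.19% of all genes were. With medians subtracted 3 were higher and 1 lower in each population. Under that scaling 19.8% and 16.7% of all genes were higher and 19.2% and 16.3% lower. The summed score of these markers ran from -8.79 to 1.36 in tumour microglia and from -0.20 to 6.91 in undifferentiated macrophages. Their part in the values of Tnfrsf13c and Tnfrsf17 was not tested.

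Tnf, high in tumour microglia, had medians of 0.52 in differentiated macrophages (lowest -1.54, highest 1.40) and 0.51 in undifferentiated macrophages (lowest -1.32, highest 1.26). It differed from tumour microglia by -0.65 (SE 0.522, adjusted p = 0.33) and -0.57 (SE 0.545, adjusted p = 0.42), neither called. With medians subtracted the difference was called lower in differentiated macrophages, at -1.32 (adjusted p = 0.039). Under that scaling Tnfrsf21 was also called lower in undifferentiated macrophages, by -0.96 (adjusted p = 0.045).

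**Figure D3:**
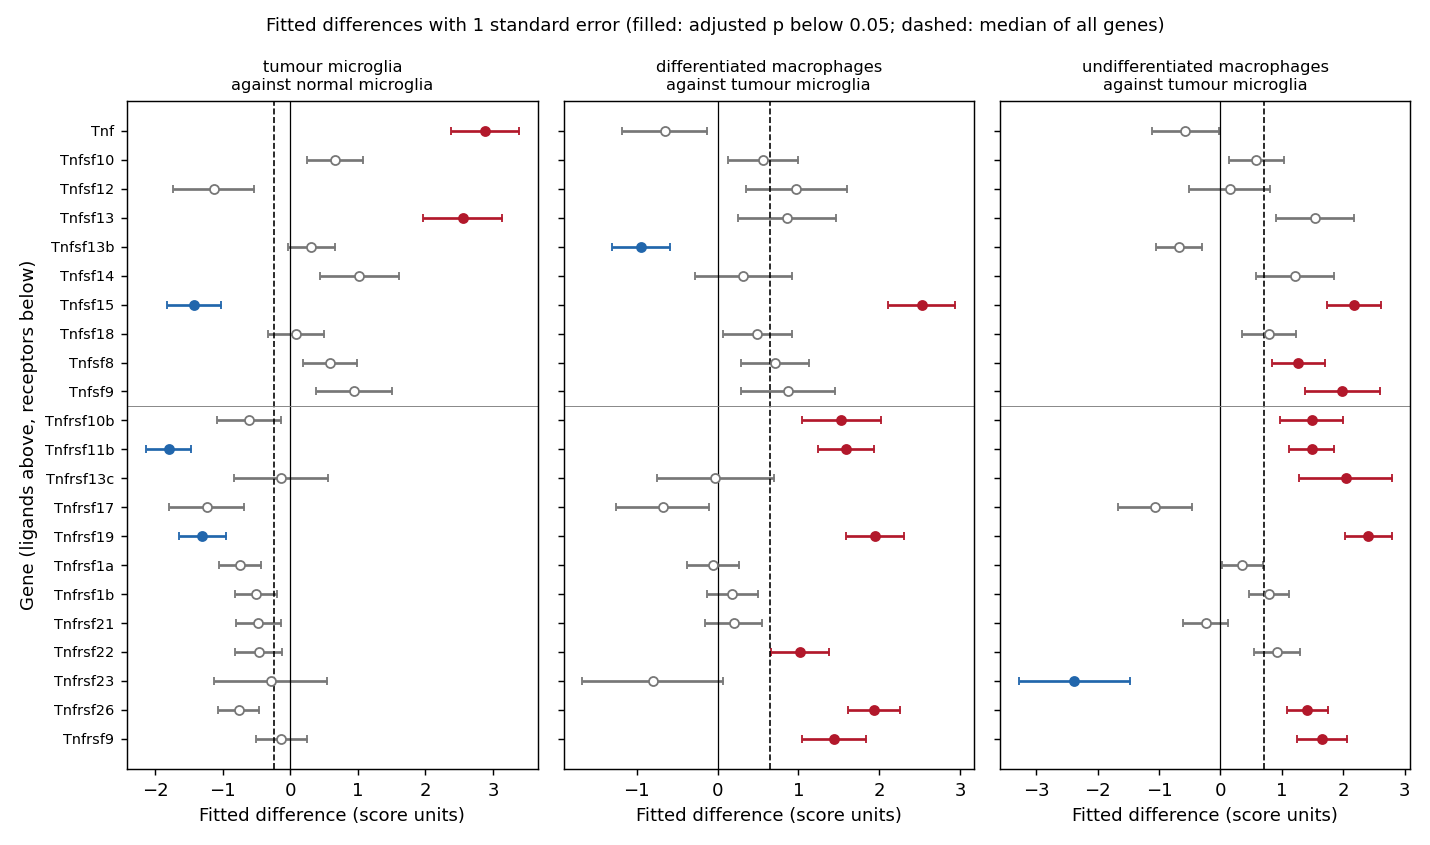
Fitted difference of each gene in 3 comparisons with 1 SE (points, filled where the adjusted p was below 0.05, red higher and blue lower), in score units. The dashed line marks the median of all genes, at -0.25, 0.65 and 0.71, and the points of all receptors lie left of 0 in the first panel.

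Differentiated against undifferentiated macrophages showed no called member in either direction by limma, where 0% of all genes were called higher and 0.0114% lower. At an unadjusted p below 0.05 there was 1 member, Tnfrsf13c, lower in differentiated macrophages by -2.07 (SE 0.83, unadjusted p = 0.02), where 2.79% of all genes passed. The median over members was -0.15, beside -0.05 over all genes. The table kept 67.6% of this contrast, the least of those compared, and a missing call does not show that the populations were alike.

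Both macrophage populations were also compared with normal microglia, a comparison added after the data were seen. Differentiated macrophages had 8 members called higher, where 24.7% of all genes were, and 1 lower, where 8.02% were. Undifferentiated macrophages had 8 higher and 2 lower, where 21.8% and 6.18% of all genes were. In each population 6 of the 8 called higher were ligands. These were Tnf, Tnfsf8, Tnfsf9, Tnfsf10 and Tnfsf13 in both, with Tnfsf15 in differentiated and Tnfsf14 in undifferentiated macrophages. The median over ligands was 1.26 in differentiated and 1.56 in undifferentiated macrophages, and over receptors -0.19 and 0.36, beside 0.53 and 0.57 over all genes. With medians subtracted 2 members were higher and 3 lower in differentiated macrophages (10.5% and 13.1% of all genes), and 5 higher and 3 lower in undifferentiated macrophages (7.81% and 10.6%). The 5 were ligands, Tnf, Tnfsf8, Tnfsf9, Tnfsf13 and Tnfsf14. Without the 9 libraries and without the terms, Tnf and Tnfsf13 were still called higher in both macrophage populations, with Tnfsf8, Tnfsf9 and Tnfrsf19 higher and Tnfrsf17 lower in undifferentiated macrophages as well. Normal microglia are shared with the comparison of tumour microglia, and experiment and graft cannot be told apart from population here. Cell type markers were called higher in differentiated and undifferentiated macrophages for 1 and 0 of 4 T cell and 2 and 2 of 3 NK cell markers. For B and plasma cells these were 5 and 5 of 6, with 1 and 1 lower, and for dendritic cells 3 and 3 of 3. With medians subtracted the higher calls were 1 and 0, 0 and 0, 1 and 3, and 3 and 2. Their part in the members' values was not tested.

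Tnfsf13 ran from -1.61 to 2.80 with a median of 1.33 in differentiated macrophages, and from 0.73 to 1.95 with a median of 1.36 in undifferentiated macrophages. The undifferentiated libraries lay above all 8 of normal microglia, as for 5.51% of all genes. Its differences were 3.41 (SE 0.59, adjusted p = 0.00025) and 4.10 (SE 0.629, adjusted p = 8.2e-05), called in all 32 leave-out fits of both comparisons and with medians subtracted. Tnf was higher by 2.23 (SE 0.507, adjusted p = 0.0025) and 2.31 (SE 0.54, adjusted p = 0.0037), lost without library 10 in the first and without libraries 2 or 31 in the second, with values from 1.72 to 2.72 and from 1.63 to 2.84. Tnfsf9 had a median of -1.51 in normal microglia (lowest -1.88, highest -0.51) and was higher by 1.81 (SE 0.569, adjusted p = 0.019) and 2.93 (SE 0.607, adjusted p = 0.0015). With medians subtracted Tnfsf9 lost its call in differentiated macrophages, at 1.39 (adjusted p = 0.086), and kept it in undifferentiated macrophages. The first call of Tnfsf9 was also lost without libraries 2, 10, 18, 1, 7, 20, 28 or 8, with values from 1.42 to 2.77, and the second without library 2, with values from 2.20 to 3.82. Tnfsf8 had a median of -0.92 in normal microglia (lowest -1.28, highest -0.46), below every undifferentiated library, and was higher by 1.30 (SE 0.404, adjusted p = 0.018) and 1.86 (SE 0.43, adjusted p = 0.0035). With medians subtracted Tnfsf8 lost its call in differentiated macrophages, at 0.88 (adjusted p = 0.13), and kept it in undifferentiated macrophages. The first call of Tnfsf8 was also lost without libraries 10, 26, 1, 7, 31, 28 or 29, with values from 0.78 to 1.54, and the second without library 26, with values from 1.38 to 2.07.

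Tnfsf14 (LIGHT), a co-stimulator of T cells, was called higher in undifferentiated macrophages alone, by 2.24 (SE 0.63, adjusted p = 0.012), with 1.35 (SE 0.586, adjusted p = 0.08) in differentiated macrophages. Its call was lost without libraries 2, 10 or 31, with values from 1.27 to 3.09. Its median was -1.07 in normal microglia (lowest -2.55, highest 0.19) and 0.76 in undifferentiated macrophages (lowest -0.06, highest 2.13). Tnfsf10 (TRAIL) was higher by 1.23 (SE 0.419, adjusted p = 0.029) and 1.25 (SE 0.447, adjusted p = 0.04), and neither call held with medians subtracted. The first was lost without libraries 10, 26, 1, 17, 31, 8 or 29, with values from 0.70 to 1.61, and the second without libraries 2, 10, 26, 1, 17, 23, 31, 4, 8, 24, 32, 5, 21 or 29, with values from 0.61 to 1.53. Its median was -0.68 in normal microglia (lowest -2.02, highest 0.45), then 0.42 (lowest -0.14, highest 1.17) and 0.46 (lowest -0.48, highest 1.19), with overlap.

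Tnfrsf17 was the 1 member called lower in both macrophage populations against normal microglia. Its median was 1.53 in normal microglia (lowest -0.29, highest 2.15), 0.26 in tumour microglia (lowest -1.49, highest 2.24), -0.71 in differentiated macrophages (lowest -2.11, highest 0.47) and -0.75 in undifferentiated macrophages (lowest -1.84, highest 0.54). It fell by 1.92 (SE 0.558, adjusted p = 0.013) and 2.30 (SE 0.595, adjusted p = 0.0075), also with medians subtracted. The calls were lost without libraries 10, 18, 26, 1, 28 or 29 in the first, with values from -2.17 to -1.15, and without libraries 10 or 1 in the second, with values from -2.77 to -1.87. Tnfrsf23 was called lower in undifferentiated macrophages by -2.67 (SE 0.902, adjusted p = 0.032), a call lost without libraries 2, 10, 26, 17, 31, 8, 13, 21 or 29, with values from -3.44 to -1.42. Tnfrsf9 was higher in both, by 1.31 (SE 0.384, adjusted p = 0.013) and 1.52 (SE 0.409, adjusted p = 0.0093). Its calls were lost without libraries 10, 26, 1, 31, 8 or 29 in the first, with values from 0.67 to 2.10, and without libraries 2, 26, 31 or 29 in the second, with values from 0.93 to 1.96. Called in 1 population each were Tnfrsf26, at 1.18 (SE 0.311, adjusted p = 0.0072), and Tnfsf15, at 1.10 (SE 0.404, adjusted p = 0.041), in differentiated macrophages, and Tnfrsf19, at 1.11 (SE 0.374, adjusted p = 0.032), in undifferentiated macrophages. The call of Tnfrsf26 was lost without libraries 10, 26 or 1, with values from 0.88 to 1.43. Tnfsf15 lost its call without libraries 2, 10, 18, 26, 1, 9, 17, 7, 15, 31, 20, 28 or 8, with values from 0.65 to 1.46. Tnfrsf19 lost its call without libraries 2, 10, 26, 1, 17, 31, 8, 32, 5, 13 or 29, with values from 0.55 to 1.33. All these calls of Tnfrsf9, Tnfrsf26, Tnfsf15 and Tnfrsf19 were also lost with medians subtracted.

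Across the 6 comparisons 17 members were called at least once and 5 never: the receptors Tnfrsf1a, Tnfrsf1b and Tnfrsf21 and the ligands Tnfsf12 (TWEAK) and Tnfsf18 (GITR ligand). Tnfrsf1a came nearest, with a median of 0.58 in normal microglia (lowest 0.01, highest 0.82) and -0.17 in differentiated macrophages (lowest -0.99, highest 0.58). Its difference there was -0.80 (SE 0.311, adjusted p = 0.051), and it was called with medians subtracted, at -1.22 (adjusted p = 0.0055). Group means of Tnfrsf1b ran from -0.31 in tumour microglia to 0.30 in undifferentiated macrophages.

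**Figure D4:**
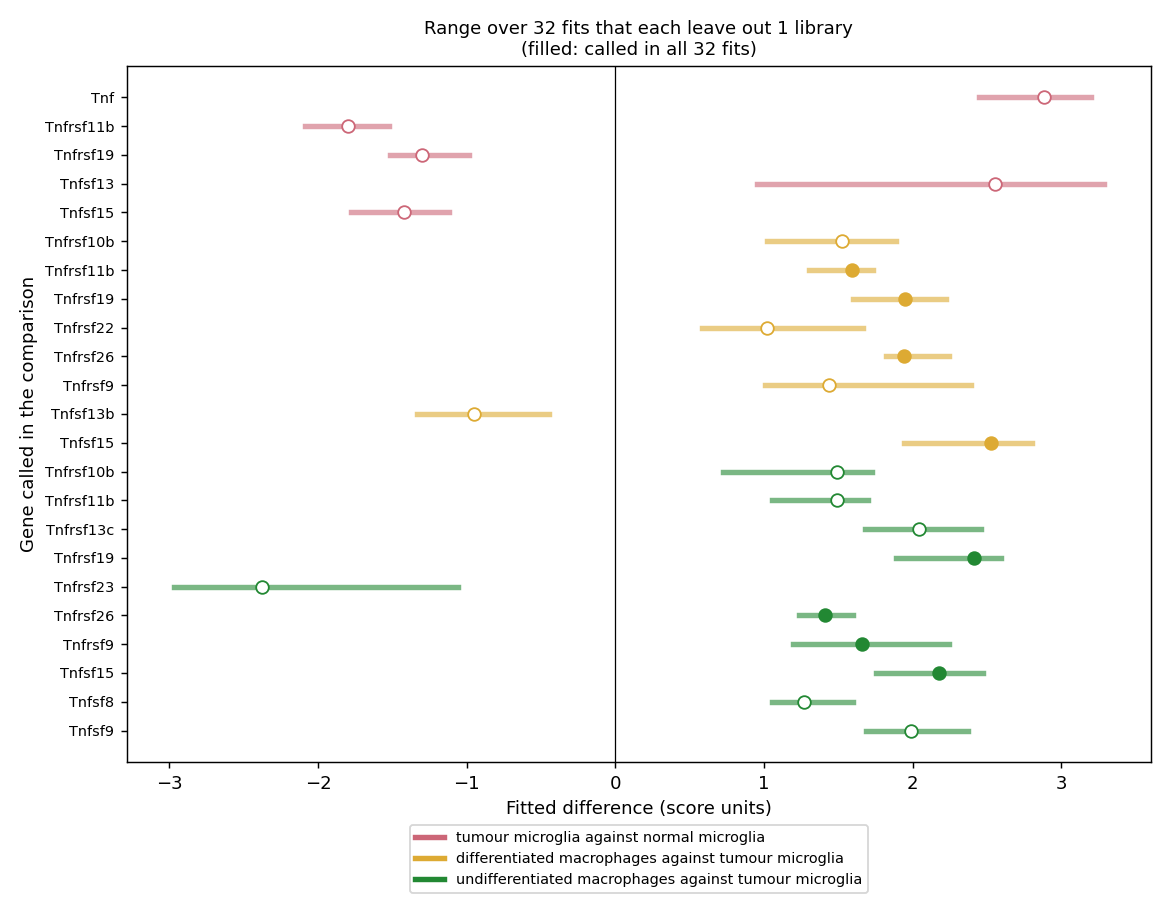
Fitted difference (point, score units) and its range over 32 fits that each leave out 1 library (bar), for every member called in 3 comparisons, filled where the call held in all 32 fits. Tnfsf15, Tnfrsf19 and Tnfrsf26 are filled in both comparisons of macrophages with tumour microglia, and no call of tumour against normal microglia is filled.

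Superfamily members under other names were read from a fixed list. Of 7 receptors measured, 3 were called higher in differentiated and 3 in undifferentiated macrophages against tumour microglia, near the 37% and 36.7% of all genes. Cd40, which licenses antigen-presenting cells, was higher by 2.01 (SE 0.55, adjusted p = 0.0053) and 2.87 (SE 0.575, adjusted p = 0.00053). The ectodysplasin receptor Eda2r was higher by 2.85 (SE 0.538, adjusted p = 0.00028) and 2.94 (SE 0.563, adjusted p = 0.00037), and the other ectodysplasin receptor, Edar, by 1.45 (SE 0.443, adjusted p = 0.011) in differentiated macrophages. Cd27 was higher by 1.77 (SE 0.643, adjusted p = 0.03) in undifferentiated macrophages. Of 2 ligands, Eda was higher in both, by 2.14 (SE 0.384, adjusted p = 0.00018) and 2.25 (SE 0.402, adjusted p = 0.00021), and the death ligand Fasl by 1.59 (SE 0.439, adjusted p = 0.0055) in differentiated macrophages. In tumour against normal microglia Eda and Edar were lower, by -1.37 (SE 0.371, adjusted p = 0.015) and -1.60 (SE 0.427, adjusted p = 0.013). Fas, Ltbr and Relt were not called in these comparisons. With medians subtracted the calls that held were Eda and Edar in tumour microglia, Eda2r and Eda in both macrophage populations and Cd40 in undifferentiated macrophages, while Cd40 was then also called higher in tumour microglia, at 1.75 (adjusted p = 0.029). Against normal microglia 3 and 3 of the 7 receptors and 1 and 0 of the 2 ligands were called higher, where 24.7% and 21.8% of all genes were. With medians subtracted these were 1 and 2 receptors and 0 and 0 ligands, where 10.5% and 7.81% of all genes were. Among these receptors Cd40 was higher by 3.52 (SE 0.535, adjusted p = 6.4e-05) and 4.38 (SE 0.57, adjusted p = 1.1e-05), also with medians subtracted.

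Lists of genes that act below the receptors held calls in both directions in tumour against normal microglia, where 4.66% of all genes were higher and 12% lower. Of 17 adaptors and kinases near the receptors 4 were lower: Fadd by -1.41 (SE 0.443), Map3k14 by -1.32 (SE 0.402), Traf2 by -1.18 (SE 0.379) and Tab2 by -0.99 (SE 0.302), none called with medians subtracted. Of 8 brakes on the pathway 1 was higher, Tnfaip3 (A20), the deubiquitinase that ends NF-kB signalling, by 1.35 (SE 0.386, adjusted p = 0.02). Among death genes Dedd was lower by -1.24 (SE 0.373). None of 3 genes of linear ubiquitin assembly and none of 5 shedding genes was called. Of 7 genes named as TNF-induced proteins, Tnfaip8l1 was higher by 1.66 (SE 0.423, adjusted p = 0.011). The calls of Tnfaip3, Dedd and Tnfaip8l1 held with medians subtracted.

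In macrophages against tumour microglia the same lists held calls in both directions, where 37% and 36.7% of all genes were called higher and 6.35% and 5.19% lower. Of the adaptors, Traf1 was higher by 1.54 (SE 0.481) and 2.65 (SE 0.503) in differentiated and undifferentiated macrophages and Fadd by 1.56 (SE 0.46) and 1.53 (SE 0.48). Traf3 was higher by 1.44 (SE 0.463) in undifferentiated macrophages, and Birc2, a ubiquitin ligase of the receptor complex, was lower by -1.17 (SE 0.448) in differentiated macrophages. Among death genes Mlkl, the executor of necroptosis, was higher by 2.07 (SE 0.563) and 1.89 (SE 0.588), and Casp8, the protease that starts receptor-driven apoptosis, lower by -1.84 (SE 0.419) and -1.32 (SE 0.438). Rnf31 and Rbck1, subunits of the linear ubiquitin ligase, were lower in differentiated macrophages by -1.64 (SE 0.442) and -0.95 (SE 0.365). Among the brakes 1 was higher in each, Tnip3, by 1.41 (SE 0.392) and 1.70 (SE 0.41). Of the shedding genes Rhbdf2, a partner of the TNF-releasing protease, was higher by 1.35 (SE 0.495) and Sppl2b by 2.13 (SE 0.8) in undifferentiated macrophages. Tnfaip2 was higher by 1.90 (SE 0.357) and 1.95 (SE 0.373) and Tnfaip6 by 1.17 (SE 0.413) and 1.90 (SE 0.432), while Tnfaip1 was lower by -1.68 (SE 0.39) and -1.11 (SE 0.407) and Tnfaip8l2 lower by -1.25 (SE 0.446) in undifferentiated macrophages. With medians subtracted the higher calls that held were Tnfaip2 in both and Traf1 and Tnfaip6 in undifferentiated macrophages, and every lower call held. More genes of these lists were then called lower, as were 19.2% and 16.3% of all genes. In differentiated and undifferentiated macrophages 4 and 4 of the 17 adaptors were lower under that scaling, where 1 and 0 had been, with 3 and 1 of the 3 linear ubiquitin genes, where 2 and 0 had been.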

How the data were processed

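RNA from 32 libraries of sorted mouse brain cells was turned into cDNA with Clontech's SMART-Seq v4 chemistry for very low input, per the labels' protocols. The submitters' processing notes name FastQC, the aligner STAR 2.5.0a, the quantifier RSEM 1.3.0 and the build mm9. The authors deposited 1 table of 17586 genes, named as normalised counts, whose values run from -6.50 to 6.92. The deposited values are scores on an unstated scale, which the authors normalised and centred by steps not given in the sources used here, so count models were not used and the depth is unknown. Every gene has mean 0 over all libraries and within each recipient strain, and 11 sample directions carry no variation (the mean, the recipient strain and 9 more).

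All 32 libraries were fitted in limma 3.58.1 (R 4.3.3) with a mean for each population and recipient and the removed directions as terms, leaving 15 residual degrees of freedom, with robust empirical Bayes. Contrasts were averaged over recipients, p-values were adjusted over all 17586 genes by Benjamini-Hochberg, and 0.05 was the threshold. The fit was tested on simulated data, drawn independently for each library, from which the same directions had been removed. Such data cannot show how the fit behaves where libraries share other effects. The members, the gene lists and the tests were chosen with earlier results of these data known. Members were named with values if called in any comparison, together with measured partners of called ligands or receptors, and list genes if called, up to 4 per list and comparison with the largest difference, apart from some of the death list, which are not reported here. There were 4 comparisons from the design and 2 with normal microglia added later. The alternatives were no terms for the removed directions, library medians subtracted, the compared groups alone, library weights, no robust option, leaving out the 9 libraries that kept under 50% of their variation (with and without terms), either recipient alone, sets of 8 library numbers as a block, and each library left out in turn. Promoters came from RefSeq (GRCm38.p6). No coordinate of the authors' build was used.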

Additional observations from a re-analysis of the deposited data

Results flagged for a closer look

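Of the values of single libraries, 4 stood apart from the other 7 of their population by Dixon's test at the 95% level, among 88 combinations of gene and population, where chance alone marks about 1 in 20. Tnfrsf13c was 3.07 in tumour microglia library 22, with the next highest at 0.13. Tnfrsf9 was -2.57 in normal microglia library 25, with the next lowest at -0.98. Tnfsf12 was -4.61 in undifferentiated macrophage library 32, with the next lowest at -0.33. Tnfsf18 was -2.34 in normal microglia library 9, with the next lowest at -0.39. These 4 libraries kept 75.1%, 83.5%, 85.3% and 86% of their own variation, none among the 9 that kept under 50%.

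Among 132 tests of whether a member's difference depended on the recipient strain, 1 was called. Tnfrsf26 in tumour against normal microglia differed between recipients by 4.54 (WT minus Pep3, adjusted p = 0.015, limma), with a fitted difference of 1.51 (SE 0.536, adjusted p = 0.22) in WT and -3.04 (SE 0.619, adjusted p = 0.0025) in Pep3 recipients. The deposited means differed by 0.21 in WT and -1.18 in Pep3 recipients, so the fitted values were larger than the differences of the means. Recipient strain, experiment and graft direction cannot be told apart in this contrast.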

How the results depend on the processing

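No library number is shared between groups, but the numbers run in 4 sets of 8 that each hold 1 library of every population and recipient, and no label says what a set shares. Deviations from the means of population and recipient correlated over 0.1 in 24 of 112 pairs of libraries of 1 set. The mean correlation was -0.0057 within sets, beside 0.0021 between sets, and the share over 0.1 between sets is not given here. Directions across samples had been removed from the table and may have held effects shared by a set. These correlations therefore cannot show whether the numbers pair the libraries. A fit with the set as a replicate block, added after the data were seen, gave 0 members lower in undifferentiated macrophages against tumour microglia, where 1 had been, and 1 lower against normal microglia, where 2 had been. With that block and no terms for the removed directions, 2 were lower in differentiated macrophages against normal microglia, where 1 had been. The other counts under both block fits were within 1.5 times those without the block, and no called member turned in direction.

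Counts of members called higher and lower are given in that order. Tumour against normal microglia gave 2 and 3, with 1 and 1 under library weights, 1 higher with the compared groups alone, 1 and 0 without the 9 libraries and without terms, and 0 and 0 without them with terms, in WT alone and in Pep3 alone. Differentiated macrophages against tumour microglia gave 7 and 1, with 4 and 2 with medians subtracted, 4 higher without the 9 libraries and without terms, and 0 and 0 without them with terms, with the compared groups alone, in WT alone and in Pep3 alone. Undifferentiated macrophages against tumour microglia gave 9 and 1, with 2 and 4 with medians subtracted, 5 and 0 without the 9 libraries and without terms, 0 lower under library weights, and 0 and 0 without the 9 with terms, with the compared groups alone, in WT alone and in Pep3 alone. Without terms for the removed directions it gave 11 and 1, of which 8 higher and 0 lower were shared. Differentiated against undifferentiated macrophages gave 0 and 0 under every alternative run, the block included.

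Differentiated macrophages against normal microglia gave 8 and 1. Medians subtracted gave 2 and 3, library weights 2 and 0, no terms or no robust option 2 lower, the 9 libraries left out without terms 2 and 0, and the compared groups alone, the 9 left out with terms and either recipient alone 0 and 0. Undifferentiated macrophages against normal microglia gave 8 and 2. Medians subtracted gave 5 higher, library weights 5 and 0, the compared groups alone 2 and 0, the 9 left out without terms 5 and 1, the 9 left out with terms and WT alone 0 and 0, and Pep3 alone 1 and 0.

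Over the 32 fits that left out 1 library, the counts ran from 0 to 2 and 0 to 4 for tumour against normal microglia, 4 to 8 and 0 to 1 for differentiated and 5 to 11 and 0 to 1 for undifferentiated macrophages against tumour microglia, and 1 to 9 and 0 to 2, then 2 to 11 and 0 to 2, for the same populations against normal microglia. Differentiated against undifferentiated macrophages stayed at 0 and 0.

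Among members called in the fit of all libraries with terms, the direction turned in 23 cases, none of them past the threshold. None of these came by medians subtracted, weights, the robust option or 1 library left out. Members that were not called were not counted, and some of them did turn. Tnfrsf1b in differentiated macrophages against tumour microglia went from 0.18 to -0.49 with medians subtracted. In WT alone, with 3 residual degrees of freedom, Tnfsf13 was -1.42 in tumour and -0.25 and -0.65 in differentiated and undifferentiated macrophages against normal microglia. Against tumour microglia, Tnfrsf9 was -0.36 in differentiated macrophages, and in undifferentiated macrophages Tnfrsf9 was -2.05, Tnfrsf10b -1.09 and Tnfrsf23 2.40. Against normal microglia, Tnfrsf17 was 0.86 in differentiated macrophages, and in undifferentiated macrophages Tnfrsf19 was -0.48, Tnfrsf23 4.11, Tnfrsf9 -1.04 and Tnfsf10 -0.74. In Pep3 alone, Tnf was -0.16 in tumour against normal microglia and Tnfsf9 -3.02 in undifferentiated macrophages against tumour microglia. With the compared groups alone, Tnfrsf10b was -0.37 in differentiated macrophages against tumour microglia. Without the 9 libraries but with terms, Tnfrsf10b was -0.21 in differentiated and -0.58 in undifferentiated macrophages and Tnfrsf23 0.76 in the latter, against tumour microglia. Against normal microglia that fit gave Tnfrsf17 2.04 and 0.57, Tnfsf10 -1.49 and -0.92, and Tnfrsf23 1.26 in undifferentiated macrophages. Fits of 1 recipient and of the compared groups alone have fewer samples and 3 residual degrees of freedom. Within 1 recipient strain, macrophages and tumour microglia also came from different experiments. The cause of the other changes was not tested.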
